A study of Mus musculus with 9 samples.

Results

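Wild-type peritoneal macrophages pretreated with SHP099, an allosteric inhibitor of the tyrosine phosphatase SHP2, were compared with wild-type peritoneal macrophages that received no inhibitor, both after imiquimod (IMQ), a ligand of the RNA sensor TLR7. The comparison covered every gene with a mean FPKM (fragments per kilobase of transcript, scaled to the sequencing depth) of at least 1 over the 9 libraries of the experiment, which was 11450 of 54059 genes. The gene just inside this minimum was Ccdc102a, with a mean of 1.00009 FPKM, and the gene just outside it was Mir26b, with 0.999807 FPKM. The WT group held 3 libraries of macrophages from C57BL/6 mice stimulated in vitro with IMQ at 10 ug/ml for 4 h. The SHP099 group held 3 libraries of the same genotype and strain, exposed to 10 uM SHP099 for 2 h before the same IMQ stimulus. Another group of 3 libraries came from IMQ-treated macrophages of M-Shp2-/- mice (SHP2lyz2-/- in the labels), in which a Cre recombinase under the Lyz2 promoter removes Shp2 from myeloid cells, and is given only beside the main comparison. According to the labels all mice were 8 weeks old and all cells were elicited with 1 ml of starch broth, washed from the peritoneal cavity after 3 days and purified by adherence. The agents, doses and times come from the study's text and not from the labels, and libraries of cells without IMQ were not analysed here. The study's legend describes the cells without inhibitor as untreated or as a medium control. Whether that medium held the solvent of SHP099 is not given in the sources used here, so that inhibitor and solvent cannot be told apart. Nothing says whether the 3 libraries of a group came from separate animals, so that p values measure the spread between these libraries, which may be technical.

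SHP2 is encoded by Ptpn11 and carries signals from receptors for growth factors, cytokines and adhesion molecules to the RAS-ERK cascade. SHP099 holds the enzyme in its closed, inactive form. When TLR7 binds its ligand in the endosome, the adaptor MyD88 activates NF-kB and the MAP kinases, and macrophages then transcribe cytokines, chemokines and lipid mediator enzymes, while feedback inhibitors limit the response.

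The libraries held 42530178 to 50979545 reads in the WT group and 39841813 to 43891742 reads in the SHP099 group, as recovered from the steps between FPKM values. Macrophage markers summed to 10517 to 13580 FPKM in WT and 11852 to 13865 FPKM in SHP099 libraries. WT replicate 3 and M-Shp2-/- replicate 3 stood apart from their groups. WT replicate 3 had the lowest size factor (0.849) and the highest mean log2 level of 48 interferon-stimulated genes, at 6.21 against 4.51 and 4.96 in the other WT libraries and 4.14 to 4.91 in the SHP099 libraries. M-Shp2-/- replicate 3 differed most from its own group, with correlations of log2 values of 0.967 and 0.954 to replicates 1 and 2, which correlated at 0.992 with each other.

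At the thresholds of the study (at least a 2-fold change with an adjusted p no higher than 0.005), 19 of the 11450 genes differed between SHP099 and WT by limma's moderated test with Benjamini-Hochberg adjustment, which is 0.166% of all genes tested. Of these, 15 were lower (0.131%) and 4 were higher (0.0349%) with SHP099. With at least a 2-fold change and an adjusted p no higher than 0.05, 136 genes were lower (1.19%) and 61 were higher (0.533%), together 197 genes (1.72%). Without a minimum fold change, 797 genes passed (6.96%), of which 276 were lower (2.41%) and 521 were higher (4.55%). A gene is called lower or higher in what follows when its adjusted p was no higher than 0.05. Fold changes are of FPKM + 1, which understates the change of genes with low values. In each of the 797 genes the 3 SHP099 libraries lay wholly above or wholly below the 3 WT libraries, which held for 34.6% of all genes tested (6.77% lower and 27.9% higher).

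The balance between lower and higher genes depended on how libraries were scaled. The median log2 fold change of all genes tested was 0.13 with FPKM as deposited and moved by 0.13, to about 0, under median-of-ratios scaling. Higher genes made up 65.4% of the 797 calls as deposited, 34.8% of the 575 calls (5.02% of all genes, 375 or 3.28% lower and 200 or 1.75% higher) after median-of-ratios scaling, and 49.4% of the 705 calls (357 lower, 348 higher) after quantile normalization. Of the 797 genes, 458 were called in the same direction under median-of-ratios scaling. Of the 197 genes with at least a 2-fold change, 132 of the 136 lower and 33 of the 61 higher genes passed that rule again, under which 1.56% of all genes were lower and 0.288% higher. Without WT replicate 3, 26 genes passed the thresholds of the study (18 lower, 8 higher), 275 passed with at least a 2-fold change (182 lower, 93 higher), and 1273 passed without it (11.1% of all genes, 466 or 4.07% lower and 807 or 7.05% higher). The counts fell when another library was left out. Without SHP099 replicate 1, 2 or 3 no gene passed the thresholds of the study, and 79, 41 and 87 genes passed with at least a 2-fold change. Without WT replicate 1 or 2 these counts were 4 and 5 genes, and 141 and 189 genes. Without the filter on low FPKM, 0 genes passed the thresholds of the study and 49 passed with at least a 2-fold change.

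**Figure D1:**
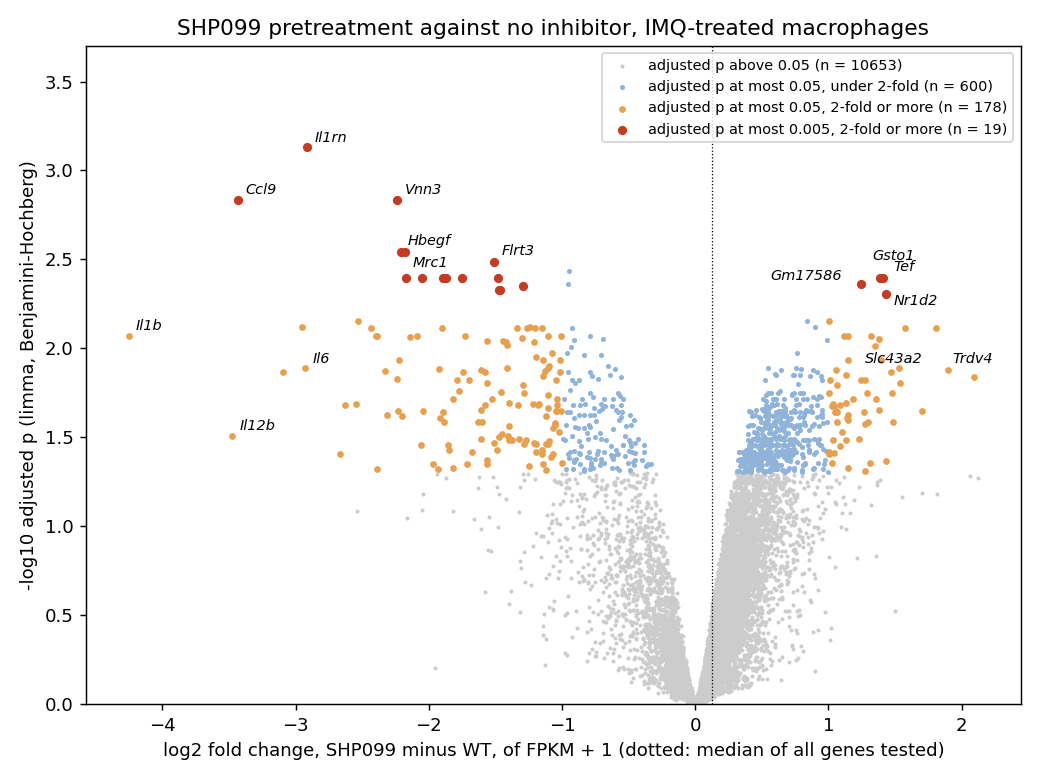
Log2 fold change of FPKM + 1 (SHP099 minus WT, x axis) against the -log10 adjusted p (y axis) for the 11450 genes tested, with 3 libraries a group. Red points mark the 19 genes at the thresholds of the study and orange points the other genes called with at least a 2-fold change. The largest changes, down to -4.25 for Il1b, lie on the lower side.

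Ptpn11 itself, the gene of the inhibited protein, had 45.8, 44.02 and 39.99 FPKM in WT and 43.04, 42.1 and 39.6 FPKM in SHP099 libraries. The groups overlapped (log2 fold change -0.05, SE 0.09, adjusted p = 0.729). Tlr7, which encodes the receptor of IMQ, was lower with SHP099. Its WT libraries held 89.6, 87.01 and 103 FPKM and its SHP099 libraries 49.6, 48.7 and 67.8 FPKM, so that the SHP099 mean was 59.5% of the WT mean (log2 fold change -0.75, adjusted p = 0.0314). The list of Toll-like receptors and adaptors held 37 genes that were tested. Of these, 4 were lower and 1 was higher, beside 2.41% and 4.55% of all genes. The median log2 fold change of the list was -0.03, beside 0.13 for all genes. Tlr8, a neighbour of Tlr7 in sequence and in the endosome, fell from 72.3, 37.5 and 60.3 FPKM to 8.93, 16.4 and 18.4 FPKM (adjusted p = 0.0228). Ly86, which encodes MD-1, a partner of the receptor RP105, had a log2 fold change of -0.97, and Tlr2 one of -0.49. Slc15a4, an endosomal histidine transporter needed by endosomal Toll-like receptors, was the higher member, at 28.4, 25.3 and 24.8 FPKM in WT and 36.2, 37.6 and 36.01 FPKM with SHP099 (log2 fold change 0.47). It did not pass under median-of-ratios scaling (adjusted p = 0.0656), where 7 members of the list were lower, beside 3.28% of all genes. Without WT replicate 3, 7 were lower and 3 higher, beside 4.07% and 7.05% of all genes.

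Inflammatory cytokines were lower in part, and Il1b had the largest decrease of all genes called on the scale of log2(FPKM + 1). As a share of the WT mean, Scimp (1.02%) and Retnla (3.82%), both described below, were lower still. Of 27 cytokine genes tested, 10 were lower, all of them by at least 2-fold, and 17 did not pass. Of all genes, 2.41% were lower and 1.19% were lower by at least 2-fold. The share of all genes lower was 3.28% under median-of-ratios scaling and 4.07% without WT replicate 3, where 7.05% were higher. The median log2 fold change of the list was -0.85, or -0.94 under median-of-ratios scaling and -0.56 without WT replicate 3, and the count of 10 was the same under median-of-ratios scaling and without WT replicate 3, where 2 others were called higher. Il1b, which encodes IL-1beta, had 4291, 4108 and 3143 FPKM in WT and 192, 99.96 and 409 FPKM in SHP099 libraries. The SHP099 mean was 6.08% of the WT mean (log2 fold change -4.25, SE 0.46, adjusted p = 0.00846). Il1a, which encodes IL-1alpha and lies beside Il1b on chromosome 2, had 1215, 1373 and 1048 FPKM in WT and 218, 68.2 and 185 FPKM with SHP099 (12.96% of the WT mean, log2 fold change -3.09). In both genes SHP099 replicate 2 was the lowest of its group, and the SHP099 libraries varied more among themselves than the WT libraries on the log scale. Il1rn encodes the antagonist that blocks the IL-1 receptor and had the smallest adjusted p of all genes. It fell from 348, 440.4 and 445 FPKM to 54.8, 47.2 and 58.8 FPKM (log2 fold change -2.91, SE 0.13, adjusted p = 0.000742). Both agonists and their antagonist were lower in all SHP099 libraries than in any WT library.

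Il6 had 221, 237 and 258 FPKM in WT and 25.9, 18.3 and 58.4 FPKM with SHP099 (14.4% of the WT mean, adjusted p = 0.0129). Il12b encodes the p40 chain shared by IL-12 and IL-23. It varied widely in WT, at 1411, 247 and 737 FPKM, and had 31.3, 57.3 and 98.4 FPKM with SHP099 (log2 fold change -3.48, SE 0.66, adjusted p = 0.0309). The lowest WT library exceeded the highest SHP099 library, and the gene passed in 11 of the 16 alternative analyses. Csf2, the gene of GM-CSF, had 12.3, 9.24 and 13.8 FPKM in WT and 2.88, 0.2196 and 1.14 FPKM with SHP099 (log2 fold change -2.54). Il1b, Il1a and Csf2 each overlap a gene on the opposite strand (Il1bos, Gm14023 and Gm12223), and the kit does not mark strand, so that the reads of such pairs cannot be told apart. Of the 197 genes, 25 lower and 19 higher ones overlap a gene on the opposite strand. Gm14023 itself was called, at 15.5, 19.01 and 17.95 FPKM in WT and 3.27, 1.25 and 3.09 FPKM with SHP099.

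Chemokines were lower in part. Of 20 chemokine genes tested, 5 were lower, beside 2.41% of all genes, and 15 did not pass. The median log2 fold change was -0.82. Without WT replicate 3 the median was -0.47 and 7 were lower, beside 4.07% of all genes. Ccl9, a ligand of CCR1, showed the largest decrease among the 19 genes. It had 869, 499.7 and 662 FPKM in WT and 66.03, 54.5 and 61.1 FPKM in SHP099 libraries, 8.94% of the WT mean (log2 fold change -3.43, SE 0.19, adjusted p = 0.00146). The SHP099 libraries were close to each other and far below the lowest WT library. Ccl2 and Ccl7 draw monocytes through CCR2. Ccl2 fell from 1128, 840.1 and 1085 FPKM to 262, 128 and 211 FPKM (19.7% of the WT mean), and Ccl7 fell from 313, 312 and 375 FPKM to 62.3, 25.5 and 46.5 FPKM (13.4%). In both, as in Il1b and Il6, SHP099 replicate 2 was the lowest library. Cxcl3, a neutrophil chemoattractant, had 617, 715 and 259 FPKM in WT and 129, 81.9 and 109 FPKM with SHP099 (adjusted p = 0.024). Ccl6 changed less, from 758, 1297 and 939 FPKM to 474, 241 and 373 FPKM (log2 fold change -1.48).

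The DNA before the start sites of the lower genes was searched for the letters of known binding motifs, on both strands, in RefSeq windows of 250 bases before to 50 bases after a start (GRCm38.p6). Of the 136 genes lower by at least 2-fold, 102 had a window. The AP-1 letters TGANTCA were present in 23 of these (22.5%), in 3 of 44 genes higher by at least 2-fold (6.82%), in 6.20% of the 8272 genes tested that have a window, and in 7.81% of all 32851 windows. The NF-kB letters, GGGNN followed by TTTCC, were present in 6 of the 102 (5.88%), in none of the 44, in 2.06% of the genes tested and in 1.63% of all windows. The 250 bases before the start are shown for Ccl9 (chr11:83578637-83578886, minus strand) and Il6 (chr5:30012864-30013113, plus strand), which hold both motifs, and for Il1rn (chr2:24336610-24336859, plus strand), which holds the AP-1 letters. Capitals mark the motifs on either strand.
Ccl9: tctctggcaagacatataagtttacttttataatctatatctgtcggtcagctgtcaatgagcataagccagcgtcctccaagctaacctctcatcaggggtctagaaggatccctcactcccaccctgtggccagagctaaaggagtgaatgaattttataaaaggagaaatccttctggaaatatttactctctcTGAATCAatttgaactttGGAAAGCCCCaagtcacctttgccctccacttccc
Il6: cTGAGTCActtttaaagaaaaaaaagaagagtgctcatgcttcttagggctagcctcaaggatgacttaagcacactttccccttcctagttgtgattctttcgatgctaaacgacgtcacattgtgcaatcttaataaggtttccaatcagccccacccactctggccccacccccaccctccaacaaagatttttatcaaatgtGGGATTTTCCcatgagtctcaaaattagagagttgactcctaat
Il1rn: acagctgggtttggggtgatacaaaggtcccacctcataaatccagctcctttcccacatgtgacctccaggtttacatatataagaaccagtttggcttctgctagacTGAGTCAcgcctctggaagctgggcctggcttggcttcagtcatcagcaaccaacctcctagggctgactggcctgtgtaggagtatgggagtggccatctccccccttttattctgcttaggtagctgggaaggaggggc
In Ccl9 the NF-kB letters begin 35 bases and the AP-1 letters 53 bases before the start. In Il6 they begin 44 and 249 bases before it, and in Il1rn the AP-1 letters begin 141 bases before it. Such a match is a string of letters and was not tested as a binding site.

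Receptors through which macrophages respond to cytokines and chemokines were mixed. Of 39 receptor genes, 6 were lower and 1 was higher (median -0.16), beside 2.41% and 4.55% of all genes. Under median-of-ratios scaling 7 were lower and 0 higher, beside 3.28% and 1.75% of all genes. Without WT replicate 3 the counts were 8 and 5, beside 4.07% and 7.05% of all genes. The chemokine receptors Ccr1 and Ccr7 were among those that fell. Ccr1 had 14.3, 21.6 and 15.2 FPKM in WT and 5.79, 2.76 and 4.36 FPKM with SHP099, and Ccr7 had 5.04, 2.83 and 2.97 FPKM and 0.714, 0.305 and 0.727 FPKM. Csf2rb, the beta chain for GM-CSF, IL-3 and IL-5, and its relative Csf2rb2 had log2 fold changes of -1.26 and -0.84. They are near-identical copies whose reads the counting may have split. Csf1r encodes the receptor for M-CSF, on which macrophages depend for survival, and was the member that rose. It had 58.2, 67.8 and 111 FPKM in WT and 181, 211 and 206 FPKM with SHP099 (253% of the WT mean, log2 fold change 1.38, adjusted p = 0.0222). WT replicate 3 was the highest of its group, and the adjusted p under median-of-ratios scaling was 0.0575.

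Cytokine signaling through JAK and STAT proteins is limited by feedback inhibitors. In the list of 24 such genes, 4 were lower, beside 2.41% of all genes tested, and 20 did not pass. Cish, an inhibitor induced by STAT5, fell from 16.5, 11.3 and 13.1 FPKM to 2.36, 0.873 and 2.31 FPKM (log2 fold change -2.39, adjusted p = 0.00846) and overlaps Gm17040 on the opposite strand. Socs3, which restrains IL-6 signaling, fell from 888, 1009.9 and 1517 FPKM to 368, 315 and 450.2 FPKM (33.2% of the WT mean). Stat5a and Jak2 had log2 fold changes of -0.92 and -0.57, both under 2-fold.

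Components of the NF-kB and ERK pathways were called in both directions, beside 2.41% lower and 4.55% higher over all genes tested. Of 36 NF-kB factors and feedback genes, 4 were lower, each by less than 2-fold, and 1 was higher, with a median of -0.02 (0.07 without WT replicate 3). Under median-of-ratios scaling 6 were lower and 0 higher, beside 3.28% and 1.75% of all genes. Without WT replicate 3 the counts were 7 and 3, beside 4.07% and 7.05% of all genes. Bcl3, a nuclear IkB protein, went from 82.8, 102 and 86.9 FPKM to 51.1, 39.5 and 48.1 FPKM (log2 fold change -0.96), and Nfkb2, the gene of p100 and p52, from 276, 247 and 272 FPKM to 169.9, 175 and 178 FPKM (-0.60). Zc3h12a, which encodes the RNase Regnase-1, and the survival gene Bcl2a1b, which has near-identical copies, had log2 fold changes of -0.58 and -0.56. The higher member was Sqstm1, the autophagy receptor p62, at 2290.3, 2043 and 2994 FPKM in WT and 5048, 5257 and 4519 FPKM with SHP099 (log2 fold change 1.03), with an adjusted p of 0.0206 as deposited and 0.0696 under median-of-ratios scaling.

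In the RAS-ERK pathway and its feedback, 3 of 31 genes were lower and 2 were higher (median -0.01), and these counts were 4 and 2 under median-of-ratios scaling and 3 and 5 without WT replicate 3. The lower genes were Dusp5, a phosphatase of nuclear ERK, at 3.65, 3.98 and 4.38 FPKM in WT and 1.94, 1.61 and 1.697 FPKM with SHP099, Ier3 (-0.80 on the log2 scale) and Dusp16, a phosphatase of JNK (-0.52). The ETS factor Etv5, among the higher genes, rose by 0.94 on the log2 scale, from 2.74, 3.298 and 2.62 FPKM to 6.64, 6.64 and 6.11 FPKM. Of 22 immediate early factors, 5 were lower and 2 higher, beside 2.41% and 4.55% of all genes. Their median was -0.29 (-0.14 without WT replicate 3). Without that library 4 were lower and 3 higher, beside 4.07% and 7.05% of all genes. Under median-of-ratios scaling 4 were lower and none higher, beside 3.28% and 1.75% of all genes. Fos, a subunit of AP-1, had 9.29, 9.13 and 2.73 FPKM in WT and 1.19, 1.17 and 1.32 FPKM with SHP099. WT replicate 3 was the WT library nearest to the SHP099 libraries, and the gene passed in 5 of the 15 alternative analyses that tested it (adjusted p = 0.0445). Ier2 fell from 45.4, 43.01 and 68.8 FPKM to 19.8, 20.3 and 24.9 FPKM, Nr4a3, an orphan nuclear receptor, from 6.37, 2.55 and 4.37 FPKM to 0.892, 0.433 and 1.25 FPKM, and Egr1, an ERK-responsive zinc finger factor, from 3.5, 5.12 and 4.996 FPKM to 2.03, 1.14 and 2.41 FPKM. Fosl2 had a log2 fold change of -0.71. Neither Egr1 (adjusted p = 0.0526, passing in 3 of 15 alternatives) nor Fosl2 (adjusted p = 0.0585, 6 of 16) passed under median-of-ratios scaling. Klf2, a zinc finger factor that restrains macrophage activation, rose from 6.52, 7.59 and 11.4 FPKM to 18.3, 18.6 and 21.8 FPKM (adjusted p = 0.0236, and 0.0648 under median-of-ratios scaling). Among 25 genes of SHP2, SHP1 and their docking partners, Lair1, an inhibitory collagen receptor that recruits these phosphatases, was the single call, at 12.1, 11.5 and 17.3 FPKM in WT and 36.5, 33.1 and 37.5 FPKM with SHP099 (log2 fold change 1.35, adjusted p = 0.00969). This 1 higher gene of 25 stands beside 4.55% of all genes higher. Of this list, 3 were called lower and 1 higher under median-of-ratios scaling, beside 3.28% and 1.75% of all genes. Without WT replicate 3, 2 of the list were lower and 3 higher, beside 4.07% and 7.05% of all genes. The most abundant partners were Lilr4b, Sirpa and Lilrb4a, with adjusted p of 0.157, 0.0548 and 0.138.

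Growth factors and enzymes that act on the matrix formed another list with lower members. Of 36 genes, 12 were lower and 1 was higher, 10 of the lower ones by at least 2-fold, with a median of -0.52. Of all genes tested, 2.41% were lower, 4.55% were higher and 1.19% were lower by at least 2-fold. Hbegf, a ligand of the EGF receptor, fell from 9.87, 10.9 and 8.74 FPKM to 1.56, 1.05 and 1.42 FPKM (13.7% of the WT mean, log2 fold change -2.21, SE 0.15, adjusted p = 0.00289). Pdgfa, the A chain of platelet-derived growth factor, had 32.2, 27.6 and 12.3 FPKM in WT and 6.197, 4.94 and 4.53 FPKM with SHP099 and passed in 9 of 16 alternative analyses. Inhba, the gene of activin A, had 118, 245 and 213 FPKM and 58.3, 32.2 and 61.9 FPKM. The collagenase Mmp13 fell from 8.63, 12.9 and 14.2 FPKM to 2.56, 2.11 and 2.54 FPKM, and the macrophage elastase Mmp12 from 172, 106 and 156 FPKM to 47.01, 38.7 and 40.8 FPKM. Spp1, the gene of osteopontin, had 1514, 1800.3 and 1440.4 FPKM in WT and 699, 618 and 475 FPKM with SHP099 (37.7% of the WT mean).

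Genes for lipid mediators and extracellular nucleotides included some of the larger changes, although most of the list did not pass. Of 30 genes, 5 were lower and 2 higher (median 0.06), beside 2.41% and 4.55% of all genes tested. Ptgs2, the inducible cyclooxygenase COX-2, had 1589, 1442 and 2047 FPKM in WT and 288, 237 and 541 FPKM with SHP099 (20.99% of the WT mean, adjusted p = 0.0134). Adora2b, an adenosine receptor, fell from 51.5, 60.5 and 41.99 FPKM to 12.4, 8.298 and 11.2 FPKM (log2 fold change -2.17, SE 0.18, adjusted p = 0.00404). Sphk1, which makes sphingosine 1-phosphate, had 22.1, 42.9 and 33.6 FPKM in WT and 7.37, 5.42 and 6.601 FPKM with SHP099. P2ry14, a receptor for UDP-glucose, had 7.403, 12.6 and 24.4 FPKM and 2.18, 1.603 and 3.86 FPKM, and Entpd1, the ectonucleotidase CD39, had a log2 fold change of -0.87. Ptgir, the prostacyclin receptor, rose from 29.8, 29.2 and 27.1 FPKM to 58.2, 49.3 and 44.2 FPKM (log2 fold change 0.79, adjusted p = 0.0177).

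Receptors for uptake were lower in several families. In the list of scavenger receptors, lectins and alternative activation genes, 8 of 29 were lower and 1 was higher (median -0.30). Of all genes tested, 2.41% were lower and 4.55% were higher. Mrc1, the mannose receptor, had 61.5, 43.8 and 43.5 FPKM in WT and 10.3, 10.1 and 9.79 FPKM with SHP099 (log2 fold change -2.18, SE 0.14, adjusted p = 0.00289). Olr1, the receptor LOX-1 for oxidized LDL, fell from 230.2, 254 and 193 FPKM to 69.4, 50.4 and 63.3 FPKM (adjusted p = 0.00404). Tarm1, an activating receptor of myeloid cells, fell from 70.9, 77.03 and 68.9 FPKM to 21.4, 25.6 and 30.2 FPKM (adjusted p = 0.00469). In all 3 the SHP099 libraries were clearly apart from the WT libraries. Clec7a, the beta-glucan receptor dectin-1, had 438, 334 and 319.8 FPKM in WT and 121, 63.7 and 108 FPKM with SHP099. Chil3 and Retnla are secreted products of alternative activation. Chil3 had 103, 221 and 127 FPKM and 56.7, 57.5 and 55.3 FPKM, and Retnla, which varied among the WT libraries, had 7.16, 20.7 and 2.83 FPKM and 0.267, 0.294 and 0.6104 FPKM (adjusted p = 0.039, passing in 6 of 16 alternative analyses).

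Adhesion genes were lower in 11 of 36 cases and higher in 2 (median -0.28), beside 2.41% and 4.55% of all genes. Under median-of-ratios scaling 11 were lower and none higher, beside 3.28% and 1.75% of all genes. Itgax, the integrin chain CD11c, had 162, 77.8 and 54.9 FPKM in WT and 14.9, 19.5 and 20.2 FPKM with SHP099 (18.5% of the WT mean, adjusted p = 0.0224). Flrt3, a leucine-rich transmembrane adhesion protein, fell from 21.99, 26.4 and 25.2 FPKM to 7.64, 7.802 and 8.43 FPKM (log2 fold change -1.51, SE 0.11, adjusted p = 0.00327). The proteoglycans Vcan, Srgn and Sdc1 and the collagen-binding integrin Itga1 had log2 fold changes of -1.58, -1.42, -1.40 and -1.11. Of 29 genes of antigen presentation and costimulation, 3 were lower, beside 2.41% of all genes. Cd83, a maturation marker that stabilizes MHC class II, fell from 89.3, 68.6 and 96.3 FPKM to 25.2, 25.6 and 22.04 FPKM (adjusted p = 0.00404), Cd40 from 402, 210.0 and 315 FPKM to 104, 109.6 and 158 FPKM and the CD28 ligand Cd80 from 12.4, 13.3 and 7.27 FPKM to 4.27, 3.14 and 4.85 FPKM. Without WT replicate 3, 2 members of this list were lower and 4 were higher, with a median of 0.30. In that fit 4.07% of all genes were lower and 7.05% higher.

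The remaining lower genes at the thresholds of the study belong to no single group. Vnn3, a pantetheinase of the vanin family, had 58.4, 42.8 and 48.5 FPKM in WT and 9.21, 10.3 and 9.67 FPKM with SHP099 (19.5% of the WT mean, log2 fold change -2.24, SE 0.13, adjusted p = 0.00146). Bcar3, an adaptor that binds p130Cas at sites of adhesion, had 28.7, 23.7 and 27.5 FPKM and 7.14, 4.41 and 5.62 FPKM. Kcnn4, the calcium-activated potassium channel KCa3.1, had 25.3, 28.8 and 19.9 FPKM and 6.55, 5.86 and 5.16 FPKM. In all 3 each SHP099 library was far below the lowest WT library. Psd4, an exchange factor for the GTPase ARF6, fell from 44.02, 47.1 and 44.8 FPKM to 18.4, 14.8 and 13.9 FPKM, and Rps6ka2, a ribosomal S6 kinase downstream of ERK, from 46.5, 36.7 and 40.2 FPKM to 17.03, 16.4 and 15.01 FPKM. The predicted gene Gm6377 fell from 52.1, 46.3 and 59.7 FPKM to 16.4, 17.7 and 20.9 FPKM. The adjusted p of these 6 genes lay between 0.00146 and 0.00469. Among the 15 lower genes of largest change were also Scimp, a transmembrane adaptor of Toll-like receptors, at 7.698, 4.67 and 3.63 FPKM in WT and 0.0537, 0.0296 and 0.0806 FPKM with SHP099, and Ms4a4c, a membrane protein of the MS4A family, at 23.8, 8.11 and 41.99 FPKM and 2.71, 2.04 and 5.04 FPKM (adjusted p = 0.0477, 0.0653 under median-of-ratios scaling, passing in 5 of 16 alternative analyses).

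**Figure D2:**
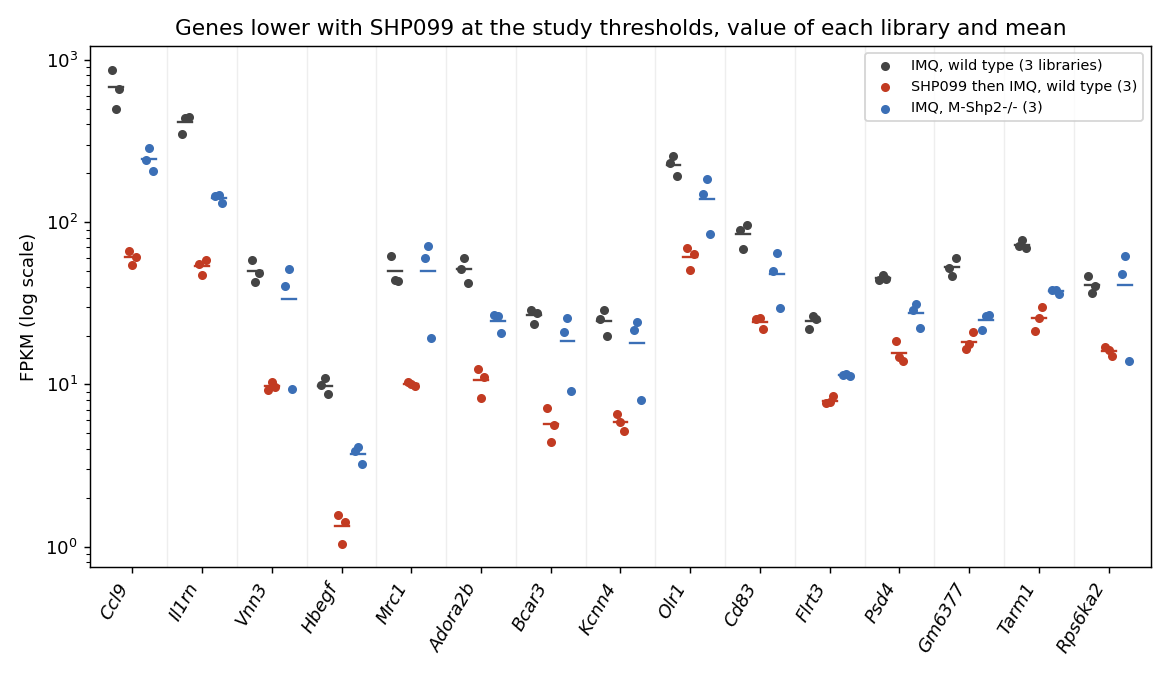
FPKM on a log axis for the 15 genes lower with SHP099 at the thresholds of the study. Each point is 1 library, in the order of replicates 1 to 3, and the bar is the group mean; the SHP099 libraries lie below all WT libraries in each gene, and M-Shp2-/- replicate 3 lies apart from the other M-Shp2-/- libraries in Vnn3, Mrc1, Bcar3, Kcnn4 and Rps6ka2.

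Genes of lipid handling were called in both directions. Over all genes tested 2.41% were lower and 4.55% higher. These shares were 3.28% and 1.75% under median-of-ratios scaling, and 4.07% and 7.05% without WT replicate 3. Of 37 genes of cholesterol synthesis and the LXR receptors, 3 were lower and 1 was higher, and these counts were 4 and 0 under median-of-ratios scaling and 4 and 1 without WT replicate 3. The lower genes were Abcg1, a cholesterol exporter (16.98, 9.87 and 5.57 FPKM in WT and 1.52, 1.55 and 1.84 FPKM with SHP099), the oxysterol enzyme Ch25h (log2 fold change -1.57, passing in 7 of 16 alternative analyses) and Nr1h3, the gene of LXRalpha (-1.10). Insig1, which restrains sterol synthesis, rose by 0.38 on the log2 scale and did not pass under median-of-ratios scaling (adjusted p = 0.248). In fatty acid storage and oxidation, Lpl, the lipoprotein lipase, fell from 149, 79.2 and 78.8 FPKM to 23.9, 38.9 and 33.7 FPKM and Hilpda, an inhibitor of lipolysis, from 112, 150.1 and 147 FPKM to 73.5, 56.8 and 65.4 FPKM. Pnpla2, the lipase ATGL that Hilpda inhibits, and its activator Abhd5 were higher by 0.58 and 0.44, and neither passed under median-of-ratios scaling (adjusted p = 0.16 and 0.159). The other 24 of 28 genes did not pass. For this list, with 2 lower and 2 higher, these counts were 2 and 0 under median-of-ratios scaling and 3 and 3 without WT replicate 3. Of 58 lysosome and V-ATPase genes, 4 were lower and 8 were higher, and after median-of-ratios scaling 5 were lower and 1 was higher. The V-ATPase subunit Atp6v0d2 fell from 148, 128 and 84.01 FPKM to 43.5, 38.1 and 34.7 FPKM, and Gpnmb, an abundant glycoprotein of endosomes and lysosomes, from 8647, 7661 and 5916 FPKM to 4035, 3371 and 3269.6 FPKM (log2 fold change -1.05). The sulfatase gene Galns had a log2 fold change of -0.63. Sgsh, a sulfamidase that degrades heparan sulfate, rose from 0.8001, 1.39 and 1.32 FPKM to 5.29, 4.55 and 4.15 FPKM (log2 fold change 1.39, adjusted p = 0.0116, and 0.0133 under median-of-ratios scaling). Idua and Lipa, the acid lipase, had log2 fold changes of 0.50 and 0.81, with adjusted p of 0.0609 and 0.0822 under median-of-ratios scaling.

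Clock genes had the highest median of the 30 lists. Of 19 genes of the circadian clock and its PAR bZIP output factors, 6 were higher and 2 were lower, with a median of 0.47, beside 4.55% of all genes higher and 2.41% lower. Under median-of-ratios scaling 5 were higher and 2 lower, beside 1.75% and 3.28% of all genes. Without WT replicate 3 these counts were 7 and 2, beside 7.05% and 4.07% of all genes. Nr1d2, the gene of the repressor REV-ERBbeta, had 11.3, 15.2 and 15.5 FPKM in WT and 38.4, 40.4 and 39.1 FPKM with SHP099 (280.0% of the WT mean, log2 fold change 1.43, SE 0.13, adjusted p = 0.00496). Tef, a PAR bZIP factor, had 14.9, 16.5 and 12.97 FPKM and 37.5, 43.9 and 41.2 FPKM (log2 fold change 1.41, SE 0.11, adjusted p = 0.00404) and overlaps Gm17597 on the opposite strand. In both genes the lowest SHP099 library held over 2 times the level of the highest WT library. Ciart, a repressor of the clock, rose from 0.524, 1.35 and 0.8699 FPKM to 3.08, 3.104 and 2.24 FPKM, and Bhlhe41 from 75.8, 71.4 and 53.3 FPKM to 123, 98.2 and 104 FPKM. The lower members were Bhlhe40, the paralog of Bhlhe41, which fell from 177, 191 and 179.9 FPKM to 89.04, 68.9 and 89.6 FPKM (log2 fold change -1.15), and Nfil3, a repressor at the same sites as Tef, which fell from 10.4, 14.8 and 11.8 FPKM to 6.196, 5.27 and 5.56 FPKM (-0.99). The time of day at which cells were taken or stimulated is not given in the sources used here.

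Genes of glutathione synthesis and targets of NRF2, the factor that responds to oxidants, were higher in 10 of 43 cases, while the other 33 did not pass (median 0.38), beside 4.55% of all genes tested higher. Under median-of-ratios scaling 7 were higher, beside 1.75% of all genes, and without WT replicate 3 10 were higher and 3 were lower, beside 7.05% and 4.07% of all genes. Gsto1, a glutathione transferase of the omega class, had 59.9, 65.6 and 71.3 FPKM in WT and 197, 169 and 155 FPKM with SHP099 (265% of the WT mean, log2 fold change 1.39, SE 0.11, adjusted p = 0.00404). Cbr3, a carbonyl reductase, rose from 5.05, 5.95 and 2.61 FPKM to 13.2, 17.3 and 11.9 FPKM. Gclm encodes the modifier subunit of the enzyme that limits glutathione synthesis, and had 102, 82.1 and 41.7 FPKM and 172, 181 and 162 FPKM (adjusted p = 0.049, and 0.0555 under median-of-ratios scaling). Srxn1, which restores peroxiredoxins, had 349, 234 and 172 FPKM and 559, 617 and 531 FPKM. WT replicate 3 was the lowest library in Gclm, Srxn1, Cbr3, Hmox1 and Pgd, and in the called members Prdx1, Blvrb and Gsr. It was not the lowest in the other called members, Gsto1 and Gpx4. Hmox1, the inducible heme oxygenase, had 525, 563 and 341 FPKM and 873, 1105 and 897 FPKM (log2 fold change 1.03), and Pgd, of the pentose phosphate pathway, rose by 0.89 on the log2 scale (adjusted p = 0.0568 under median-of-ratios scaling).

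The E-box letters CACGTG, which CLOCK and BMAL1 bind, were present in the windows of 3 of 5 higher clock genes and of 10 of the 44 genes higher by at least 2-fold (22.7%), against 8 of 102 lower by at least 2-fold (7.84%), 12.4% of the genes tested and 7.15% of all windows. The letters TGACNNNGC of the antioxidant response element can overlap those of AP-1. They were present in 4 of 8 higher glutathione genes, against 17.3% of the genes tested and 12.4% of all windows. Of the genes changed by at least 2-fold, 11 of the 44 higher (25%) and 19 of the 102 lower (18.6%) held them. The 250 bases before a start are shown for Tef (chr15:81802423-81802672, plus strand), with the E-box in capitals, and for Gclm (chr3:122245307-122245556, plus strand), with the antioxidant response element in capitals.
Tef: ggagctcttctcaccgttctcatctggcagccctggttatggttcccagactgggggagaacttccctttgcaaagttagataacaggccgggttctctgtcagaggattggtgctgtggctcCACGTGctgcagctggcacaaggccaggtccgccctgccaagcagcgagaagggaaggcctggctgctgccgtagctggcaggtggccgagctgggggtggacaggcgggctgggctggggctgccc
Gclm: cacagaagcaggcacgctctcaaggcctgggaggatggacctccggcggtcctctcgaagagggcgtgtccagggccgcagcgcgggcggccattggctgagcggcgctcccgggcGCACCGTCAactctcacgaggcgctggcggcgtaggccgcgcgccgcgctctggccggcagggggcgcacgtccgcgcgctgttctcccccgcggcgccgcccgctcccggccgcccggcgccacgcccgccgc
The capitals begin 127 bases before the start in Tef and 134 bases before it in Gclm, where the letters lie on the opposite strand.

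Genes that FOXO factors raise when growth factors are withdrawn were higher in 5 of 26 cases and lower in 1, with a median of 0.40, beside 4.55% of all genes higher and 2.41% lower. Of the 5, 1 was still called under median-of-ratios scaling, where 1.75% of all genes were higher, and without WT replicate 3 8 of the list were higher, beside 7.05% of all genes. Ulk1, the kinase that starts autophagy, rose from 13.4, 15.5 and 17.5 FPKM to 28.1, 30.6 and 27.5 FPKM (log2 fold change 0.86, adjusted p = 0.0142, and 0.044 under median-of-ratios scaling). The autophagy genes Gabarapl1 and Map1lc3b had log2 fold changes of 0.62 and 0.40, and Pik3r1, a regulatory subunit of PI 3-kinase, one of 0.45. The repressor Bcl6 had 3.19, 4.13 and 4.33 FPKM in WT and 7.01, 17.5 and 10.9 FPKM with SHP099. Trib1, a pseudokinase, fell by 1.15 on the log2 scale. Under median-of-ratios scaling the adjusted p was 0.053 for Gabarapl1, 0.222 for Map1lc3b, 0.17 for Pik3r1, 0.0781 for Bcl6 and 0.0543 for Trib1. Among 33 genes of the integrated stress response and of amino acid transport, the neutral amino acid transporter Slc43a2 rose from 23.8, 13.7 and 13.1 FPKM to 58.98, 79.7 and 54.03 FPKM (380.4% of the WT mean, log2 fold change 1.90, adjusted p = 0.0133). Slc6a9, a glycine transporter, rose from 1.81, 2.77 and 1.97 FPKM to 6.12, 5.75 and 5.89 FPKM, while Slc7a2, an arginine transporter, fell from 376, 837 and 411 FPKM to 143, 141 and 244 FPKM and passed in 7 of 16 alternative analyses.

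Further genes among the 15 higher genes of largest change belong to other groups. The lincRNA Gm17586 was the other higher gene at the thresholds of the study, at 4.54, 5.21 and 4.79 FPKM in WT and 12.5, 13.5 and 12.5 FPKM with SHP099 (log2 fold change 1.24, adjusted p = 0.00434). Hgsnat, which acts with Sgsh on heparan sulfate in lysosomes, rose from 52.3, 80.8 and 75.1 FPKM to 173, 171 and 234 FPKM. Trnp1, a nuclear protein, rose from 0.404, 1.14 and 0.843 FPKM to 5.14, 5.06 and 5.36 FPKM, Fry from 1.702, 1.71 and 3.17 FPKM to 9.07, 8.81 and 6.56 FPKM and Mturn from 2.66, 3.32 and 3.02 FPKM to 8.69, 14.2 and 9.31 FPKM. Gm9824 is a processed pseudogene, whose reads may come from its parent gene, and had 14.98, 35.1 and 17.8 FPKM and 68.2, 44.5 and 67.01 FPKM (adjusted p = 0.0686 under median-of-ratios scaling).

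**Figure D3:**
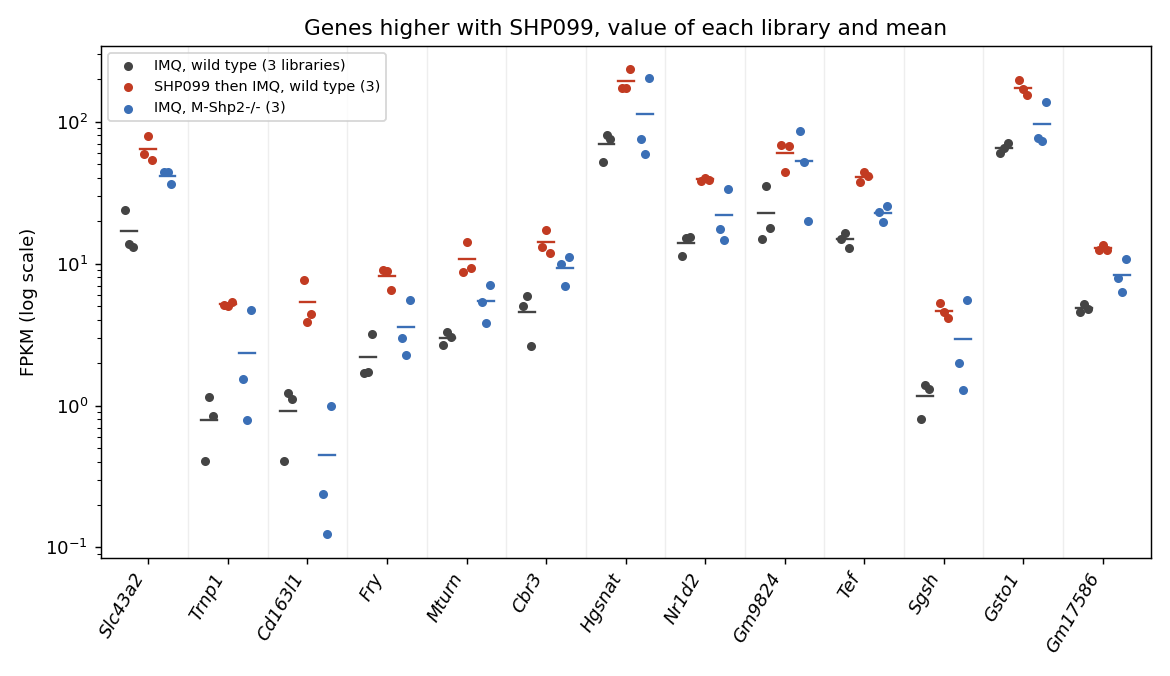
FPKM on a log axis for genes among those of largest increase with SHP099, together with the lincRNA Gm17586 and without Trdv4, which is at 0 in 1 library. Each point is 1 library, in the order of replicates 1 to 3, and the bar is the group mean; each SHP099 library lies above all WT libraries.

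Trdv4 and Cd163l1, known from gamma delta T cells, were also among the genes of largest increase. Trdv4, a variable segment of the T cell receptor delta chain, had 0.0508, 0.442 and 0.318 FPKM in WT and 7.18, 3.28 and 3.44 FPKM with SHP099. Cd163l1, a scavenger receptor, had 0.406, 1.23 and 1.12 FPKM and 7.703, 3.89 and 4.41 FPKM. The summed level of 10 markers of T cells was 2.59 to 11.6 FPKM in WT and 9.04 to 12.6 FPKM with SHP099, so that the groups overlapped. Of the 10, 3 were higher with SHP099 without overlap, as were 27.9% of all genes tested. The mean was higher with SHP099 in 7 of the 10, such as Cd3g (0.550 FPKM in WT and 1.71 FPKM with SHP099) and Cd3e (0.284 and 0.772 FPKM), and lower in Cd8a (0.621 and 0.265 FPKM), Lck (1.91 and 1.57 FPKM) and Trbc2 (0.608 and 0.539 FPKM). Of the 11450 genes tested, 8152 had a positive log2 fold change, a share close to that of these markers. Among the 3 without overlap was Tcrg-C1, a constant segment of the gamma chain. It had 0.0488, 0.318 and 0.0254 FPKM in WT and 3.33, 1.66 and 2.30 FPKM with SHP099. It comes from the marker list, and lists were chosen with earlier results of these data known. In bulk samples, more cells of a type and more RNA per cell cannot be told apart, and the part of T cells in this result was not tested.

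Markers of other cell types were low beside those of macrophages. The 8 dendritic cell markers summed to 58.8 to 169 FPKM in WT and 16.4 to 21.6 FPKM with SHP099, with 4 of 8 markers lower without overlap, against 6.77% of all genes tested. These were Itgax, which made up most of the sum, Ccr7 (values above), Flt3 and Clec9a. Flt3 had means of 0.115 FPKM in WT and 0.0348 FPKM with SHP099. Clec9a had 0.0320 FPKM in WT and 0 in all SHP099 libraries, and rests on 2 recovered reads in each WT library. The 6 mast cell markers summed to 4.76 to 6.10 FPKM in WT and 0.564 to 0.970 FPKM with SHP099, with 4 of 6 lower without overlap and Fcer1a at 0 in all. Sums of B cell (16.8 to 114 FPKM in WT, 28.5 to 66.8 FPKM with SHP099), neutrophil (39.1 to 97.1 and 51.6 to 77.4 FPKM), natural killer cell (0.744 to 12.9 and 1.52 to 3.21 FPKM) and stromal or mesothelial markers (41.4 to 310.1 and 103 to 367 FPKM) overlapped between groups. Of the 8 B cell markers, 4 were lower without overlap. The 6 eosinophil markers summed to 0.391 to 0.958 FPKM in WT and 0.0186 to 0.0549 FPKM with SHP099, with 1 of 6 lower without overlap. Ly6g, which defines neutrophils, was at 0 in the 6 libraries. The part of these cell types in the results was not tested.

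**Figure D4:**
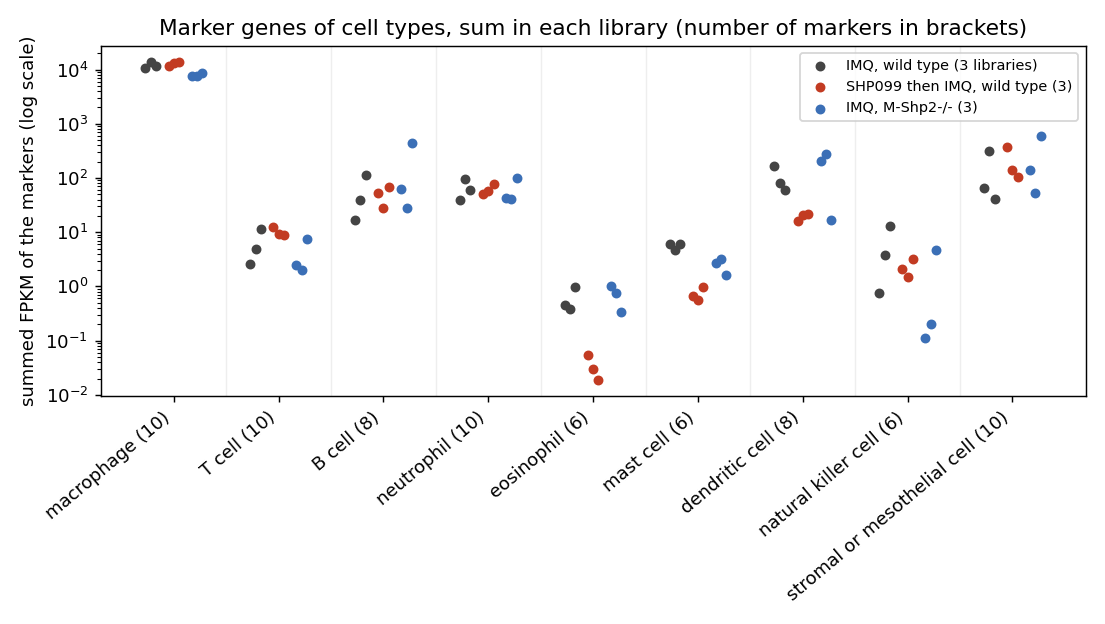
Summed FPKM of the marker genes of each cell type on a log axis, 1 point per library. Macrophage markers sum to 10517 FPKM or more in WT and SHP099 libraries, and the mast, dendritic and eosinophil sums are lower in all SHP099 than in all WT libraries.

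Genes of the interferon response, ribosomes and the respiratory chain had 1 call in all. Among 48 interferon-stimulated genes, limma called 0, 11 had an unadjusted p under 0.05, all lower (against 26.7% of all genes in either direction and 6.16% lower), and voom on recovered reads also called 0. Their median log2 fold change was -0.67, and -0.19 without WT replicate 3. In that fit 2 were called lower and 1 higher, beside 4.07% and 7.05% of all genes. Of the 48, 46 had a negative log2 fold change, beside 3298 of the 11450 genes tested. Of the 48, 8 were lower without overlap, beside 6.77% of all genes tested. The 3 most abundant members follow. The factor Irf1 had 249, 286 and 1062 FPKM in WT and 561, 511 and 673 FPKM with SHP099, and its highest value was in WT replicate 3. Ifitm3, which restricts virus entry, had 603, 724 and 834 FPKM and 400.0, 370.0 and 604 FPKM (adjusted p = 0.0931), and Lgals3bp had 589.6, 633 and 1109 FPKM and 642, 576 and 860.0 FPKM (adjusted p = 0.802). Among 77 ribosomal protein genes limma called 0, with 2 at an unadjusted p under 0.05 and 0 by voom, and the median was 0.03. Rps2, Rplp1 and Rps14 had log2 fold changes of -0.02, -0.01 and 0.15. Of 68 respiratory chain genes, the complex I subunit Ndufs7 was the single call (0.45, adjusted p = 0.0236, and 0.114 under median-of-ratios scaling), and the abundant subunits Atp5b, Cox6a1 and Cox4i1 had values of 0.04, 0.06 and 0.13.

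Of 35 glycolysis and HIF-1 target genes, the hexokinase Hk2 was lower, at 156, 206 and 189.6 FPKM in WT and 124, 92.6 and 101 FPKM with SHP099 (-0.79 on the log2 scale), while Ldha, Pkm and Aldoa had adjusted p of 0.124, 0.452 and 0.0971. Without WT replicate 3, 4 of this list were lower and 2 higher. Beside this and the following lists, 2.41% of all genes tested were lower and 4.55% higher. These shares were 3.28% and 1.75% under median-of-ratios scaling, and 4.07% and 7.05% without WT replicate 3. Of 39 cell cycle genes, Ccnd2, a D-type cyclin, fell from 18.7, 14.9 and 19.9 FPKM to 6.28, 4.701 and 6.82 FPKM (adjusted p = 0.00911), and Cdk2, the CDK inhibitor Cdkn1b and Rb1 rose by 0.42, 0.48 and 0.54 on the log2 scale, of which Cdk2 and Cdkn1b did not pass under median-of-ratios scaling (adjusted p = 0.097 and 0.137). In the inflammasome and cell death list, the sensor Nod1 (-0.73) and the caspase Casp8 (-0.39) were the lower genes of 30, and Nlrp3, Mcl1 and Bax had adjusted p of 0.833, 0.727 and 0.168. Of 26 mRNA decay regulators, N4bp1 (-0.54) and Zc3h12a were lower, and Zc3h12c, a relative of Zc3h12a, was higher (0.59, adjusted p = 0.04, and 0.165 under median-of-ratios scaling). Of 21 vanins and antimicrobial proteins, Lcn2, the siderophore binder lipocalin 2 (55.95, 74.8 and 61.9 FPKM in WT and 23.6, 29.6 and 43.97 FPKM with SHP099), and S100a10 (-0.59) were lower beside Vnn3, 3 genes in all, where 2.41% of all genes tested were lower. Without WT replicate 3, 4 were lower and 2 higher. Lcn2 did not pass under median-of-ratios scaling (adjusted p = 0.0524). Of 25 identity genes of resident peritoneal macrophages, the receptor Axl fell from 62.4, 42.9 and 64.8 FPKM to 23., 12.7 and 12.8 FPKM, and its ligand Gas6 rose from 5.67, 6.41 and 7.36 FPKM to 10.8, 13.6 and 10.3 FPKM (adjusted p = 0.0325, and 0.0798 under median-of-ratios scaling). The median of that list was -0.32, 4 were lower and none higher under median-of-ratios scaling, and 3 were lower and 2 higher without WT replicate 3, while Apoe, Cd9 and C3 had adjusted p of 0.21, 0.0793 and 0.566.

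**Figure D5:**
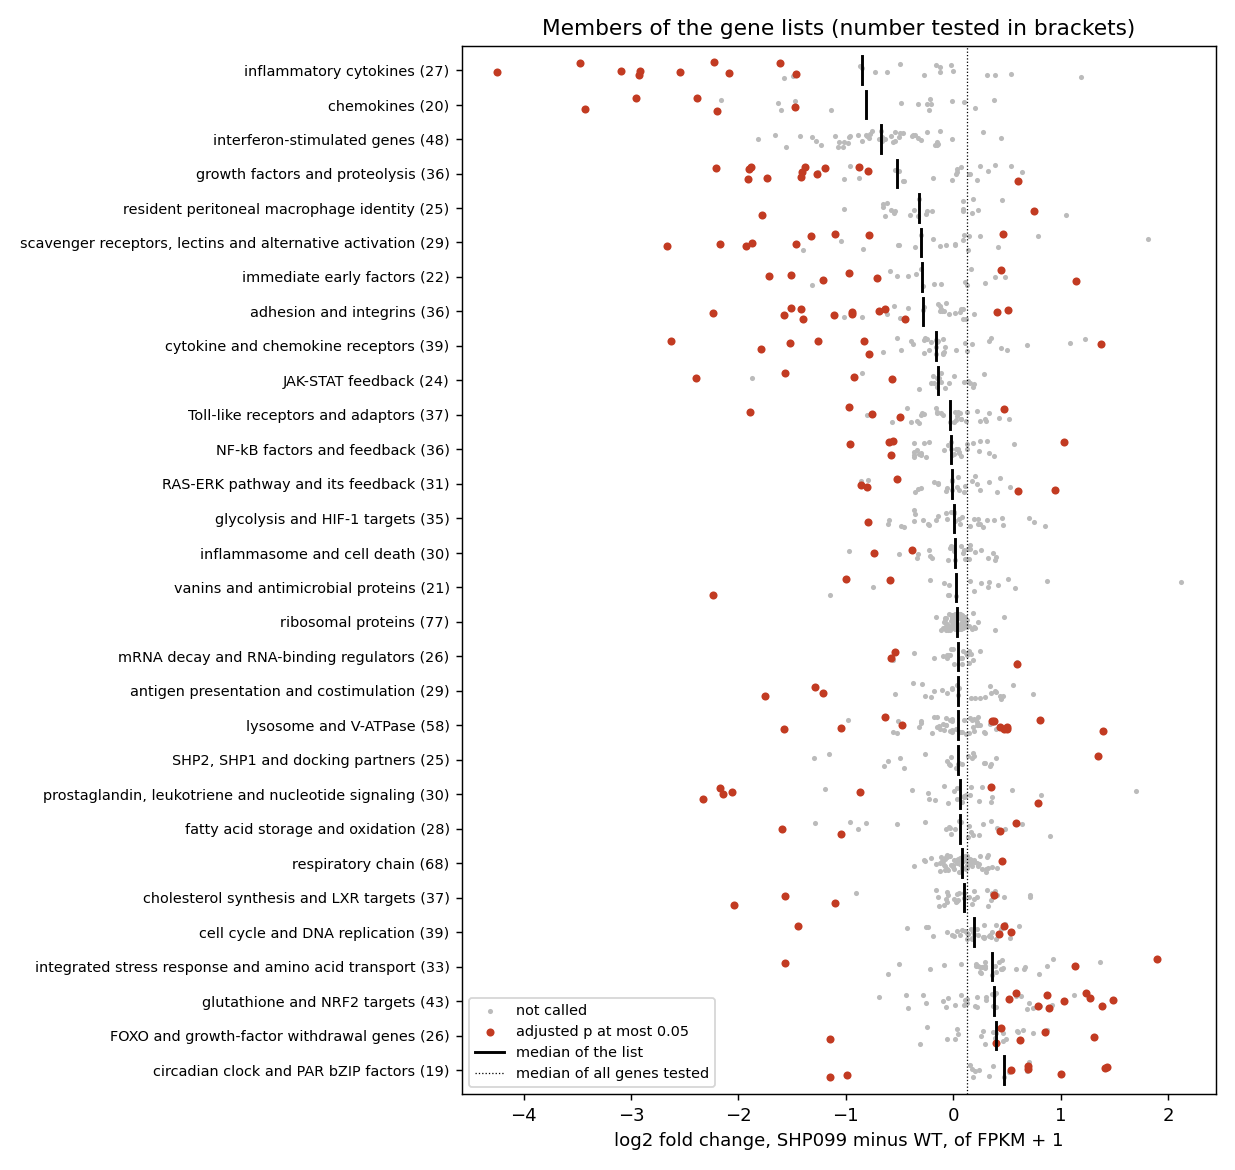
Log2 fold change of FPKM + 1 (SHP099 minus WT) of every tested member of the 30 gene lists, which are sorted by their median (black bar). Red points are called members, and the dotted line is the median of all genes tested, 0.13. Cytokines (-0.85) and chemokines (-0.82) lie at the low end and clock genes (0.47) at the high end; without WT replicate 3 growth factors (-0.71) lie below cytokines (-0.56) and chemokines (-0.47).

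Of the 197 genes called with at least a 2-fold change, 85 belong to one of the 30 lists, 69 of the lower and 16 of the higher genes. Within the SHP099 group, the 136 lower genes were most often lowest in replicate 2 (75 genes), and the median SD over these genes was 0.23 on the log2 scale in SHP099 and 0.32 in WT libraries. The 61 higher genes had a median SD of 0.17 in SHP099 and 0.31 in WT libraries.

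In IMQ-treated macrophages of M-Shp2-/- mice, set against the same WT libraries, 10 genes (0.0873%) passed an adjusted p of 0.05, all lower. They were Ptpn11 (18.6, 17.8 and 18.9 FPKM), Il6, Il1b, Il1a, Il1rn, Csf2, Gm14023, Ptgs2, Flrt3 and Tarm1. Because the comparisons share the WT libraries, the levels are given side by side. Il1b had a mean of 3847 FPKM in WT, 234 FPKM with SHP099 and 688 FPKM in M-Shp2-/- libraries. Ccl9 had 677, 60.5 and 244 FPKM in the same order, Hbegf 9.84, 1.34 and 3.74 FPKM, and Tef 14.8, 40.9 and 22.8 FPKM. The M-Shp2-/- libraries differed among themselves, with Mrc1 at 59.8, 71.2 and 19.4 FPKM, Itgax at 199.6, 267 and 13.5 FPKM and Nr1d2 at 17.6, 14.8 and 33.6 FPKM in replicates 1 to 3. Replicate 3, from cells without SHP099, was the lowest of its group in 97 of the 136 genes lower with SHP099 by at least 2-fold. It was the highest of its group in 49 of the 61 higher genes. Its Itgax value lay below the 14.9 to 20.2 FPKM of the SHP099 libraries, and its Mrc1 value above their 9.79 to 10.3 FPKM. Why this library differed was not tested.

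Inhibitor-treated and M-Shp2-/- macrophages were also compared directly. At an adjusted p of 0.05, 8 genes differed (0.0699%), 3 lower (0.0262%) and 5 higher (0.0437%) in the SHP099 libraries. Ccl9 was lower with SHP099 than in M-Shp2-/- macrophages (log2 fold change -1.99, adjusted p = 0.0109), where it had 242, 286 and 205 FPKM. Il1rn (144, 147 and 131 FPKM in M-Shp2-/- libraries) was lower by -1.38 on the log2 scale (adjusted p = 0.0109) and Fos (6.19, 4.98 and 5.604 FPKM) by -1.56 (adjusted p = 0.0163). Ptpn11 was higher with SHP099 (log2 fold change 1.13, adjusted p = 0.0109), where it is not targeted. The other 4 higher genes were named after their values were seen and are the nonclassical MHC class I genes H2-Q5, H2-Q6, H2-Q7 and H2-M3, of which the H2-Q genes are near-identical copies. H2-Q7 had 173, 160.2 and 195 FPKM with SHP099, 61.8, 68.7 and 74.9 FPKM in M-Shp2-/- and 86.9, 103 and 242 FPKM in WT libraries. H2-M3 had 70.0, 72.0 and 72.5 FPKM, 39.5, 41.7 and 44.5 FPKM, and 39.4, 41.8 and 68.6 FPKM in the same order. In both, WT replicate 3 was the highest WT library. By limma neither gene was called between SHP099 and WT (adjusted p = 0.479 for H2-Q7 and 0.132 for H2-M3). The count of 8 rests on M-Shp2-/- replicate 3. Without it 2277 genes were called, 1374 lower and 903 higher with SHP099.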

How the data were processed

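Per the labels and the study's methods, poly-A RNA libraries without strand marks (NEBNext Ultra) were sequenced, and CASAVA 1.8, HISAT2 2.0.4 and HTSeq 0.9.1 appear in the submitters' processing notes. The authors deposited FPKM of 54059 genes in each library. The step that made FPKM from counts, the strand setting, the genome build and the annotation are not given in the sources used here. Of 5235 gene spans compared, 91.8% were identical to GENCODE M21 (GRCm38). The authors' own comparisons used counts and DESeq. Here the main test used the deposited FPKM without a count model, and voom on recovered reads was an alternative. In each library 96.3% to 96.7% of the low values (at most 50 reads) fell within 0.05 of a whole read, against 10% by chance, and the step gave 39841813 to 50979545 reads per library. A separate table of gene spans holds no measurement and served only the comparison of spans.

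Values were analysed as log2(FPKM + 1), a pseudocount of 1, for the 11450 genes with a mean of at least 1 FPKM, in the 6 libraries compared, with limma 3.58.1 (lmFit, eBayes with trend) in R 4.3.3, and p values were adjusted by Benjamini-Hochberg over all genes tested. Tables were made with pandas 2.3.3 and numpy 2.4.6 and plots with matplotlib 3.10.9 in Python 3.11.15. The procedure was tested on simulated data. The rule for the genes named took Ptpn11 and Tlr7, the 19 genes at the thresholds of the study, the 15 lower and 15 higher genes of largest change among those called without overlap of libraries, and up to 6 called members of each list by size of change, with the 3 most abundant members added where fewer than 3 were called. Members and lists were chosen with earlier results of these data known. The rule of an adjusted p of 0.05 with at least a 2-fold change was chosen after seeing the data. Samples were grouped by title. The alternatives were pseudocounts of 0.1 and 5, other filters and scalings, no trend, a single fit of all 9 libraries, a block for the replicate number, voom on recovered reads, and each library left out in turn. With 3 libraries against 3 an exact permutation test of 1 gene cannot go below 0.1 and was not used. Some withheld items that this rule took are not reported here.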

Additional observations from a re-analysis of the deposited data

How the results depend on the processing

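At the thresholds of the study, 19 genes were called. The count was 14 to 19 with a minimum mean of 5 FPKM, median-of-ratios scaling, quantile normalization and either other pseudocount, with 13 to 18 of the 19 genes among them, and 17 with all 9 libraries in one fit, of which 9 were among the 19. It was 4 without the trend, 0 without a filter on low FPKM, 9 with voom on recovered reads and 0 to 26 when a library was left out. At an adjusted p of 0.05, the 797 calls became 96 without the filter, where 25374 genes were tested, and 47 to 1273 when a library was left out, lowest without SHP099 replicate 2 and highest without WT replicate 3. At an unadjusted p under 0.05 there were 3061 genes. The count for M-Shp2-/- against WT, 10, was 6 without the trend and 1 to 8 when a library was left out. That for SHP099 against M-Shp2-/-, 8, was 3 with all 9 libraries in one fit, 17 with a minimum mean of 5 FPKM and 0 to 2277 when a library was left out. The replicate numbers were not taken to pair the samples in the main fit. The deviations of same-numbered WT and SHP099 libraries from their group means correlated at -0.04, -0.09 and 0.45. Those of differently numbered libraries correlated at -0.40 to 0.49. With 3 libraries a group, these values cannot decide whether the samples are paired. With a replicate block in the fit, 0 genes passed the thresholds of the study and 591 an adjusted p of 0.05 (253 lower, 338 higher), while the counts were 2 for M-Shp2-/- against WT and 0 for SHP099 against M-Shp2-/-. With 2-fold or more, the block gave 197 genes, of which 171 were among the 197 called without it. Where one of these counts moved, the cause was not tested. The fits that leave a library out hold fewer libraries, and more genes were tested without the filter.

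Among the 160 genes that the naming rule took, 632 values in 109 genes no longer passed an adjusted p of 0.05 in an alternative and 8 values in 4 genes passed newly. Of the 138 called genes among them, 33 passed in no more than 50% of the alternatives that tested them. Direction turned in 16 values of 9 genes, none of them called in the main analysis. Under median-of-ratios scaling the log2 fold change was -0.11 for Atp5b, -0.019 for Cox4i1, -0.086 for Cox6a1, -0.055 for Mcl1, -0.071 for Nlrp3 and -3.9e-05 for Rps14. Under quantile normalization it was 0.099 for Rplp1 and 0.068 for Rps2. When a library was left out in turn it ranged from -0.295 to 0.160 for Lgals3bp, from -0.029 to 0.094 for Atp5b, from -0.058 to 0.289 for Nlrp3, from -0.104 to 0.050 for Rplp1 and from -0.078 to 0.033 for Rps2. The upper end for Lgals3bp and Nlrp3 was reached without WT replicate 3. FPKM carry no error of their own, and the precision here is that of 3 libraries a group.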
